A study of Homo sapiens with 8 samples.

Results

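The cytosolic ribosomal protein genes were read out in 8 precision run-on sequencing (PRO-seq) libraries of HCT116 cells. Members were taken by symbol, as RPL or RPS followed by a number and its letter suffixes together with RPSA, RPLP0, RPLP1 and RPLP2, on autosomes, with a level above 0.5 CPM (counts scaled to the library total) in at least 2 libraries. Of 78 matching symbols, 4 lay on chromosome X and were left out, and RPL39L, a paralog of RPL39, stayed under the CPM limit in both tables. The remaining 73 members stand among 23193 genes. Of these, 70 could be tested over the gene body, 73 at the transcription start site (TSS) and 70 in both. RPL17 and RPS10 had 0 gene body counts in every library, and 1 further member lay below the limit there. The gene body rows of RPL17 and RPS10 overlap the readthrough rows RPL17-C18orf32 and RPS10-NUDT3 on the same strand. RPS21, RPS27, RPS28, RPL36 and RPL41 were not analysed here.

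PRO-seq labels RNA that engaged polymerases extend in isolated nuclei, so its reads count transcribing polymerases and not stored mRNA. HCT116 is an established human colorectal carcinoma line, and its HIF1A-/- derivative carries a HIF1A gene disrupted in internal exons by homologous recombination. The 4 groups were WT cells in normoxia, WT cells in hypoxia, HIF1A-/- cells in normoxia and HIF1A-/- cells in hypoxia, with 2 libraries each. Hypoxia meant 1% O2 for 90 min, and all cultures received the vehicle DMSO. A single HIF1A-/- line stood against a single WT line, so the lost gene and other differences between the lines cannot be told apart.

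The libraries held 18125234 to 23622392 counted reads over gene bodies and 2783581 to 5966348 at the TSS. All 8 epithelial markers had reads in some library, with a summed gene body level of 875.64 to 1252.56 CPM. VIL1 lay near the floor, at 0.0 to 0.6222 CPM, and LGR5 was low, at 2.153 to 8.255 CPM. Of 10 markers of other cell types, 8 stayed below 0.5 CPM in every library; the exceptions were VWF, an endothelial gene, at 8.23 to 25.7 CPM, and COL1A1, a fibroblast collagen, at 19.95 to 49.28 CPM. HIF1A gene body reads were 129.5 to 175.2 CPM over the 8 libraries, and nascent reads over the whole gene body do not check a disruption of internal exons. PFKFB4, a hypoxia-induced glycolytic regulator, had 84.8 and 77.9 CPM in WT normoxia; WT hypoxia had 478 and 538 CPM and HIF1A-/- hypoxia 71.2 and 88.8 CPM. Its log2 difference between hypoxia and normoxia in WT cells was 2.64 (edgeR adjusted p = 0.00389).

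The cytosolic ribosome joins a small (40S) subunit, which reads the mRNA, to a large (60S) subunit, which forms peptide bonds, and each subunit is built from ribosomal RNA and one copy of most ribosomal proteins. The proteins are therefore needed in matched amounts, and their genes are scattered over nearly all chromosomes. Their mRNAs usually begin with a C followed by an unbroken run of pyrimidines, the 5′ terminal oligopyrimidine (TOP) motif, through which mTORC1 and the RNA-binding protein LARP1 set their translation. Hypoxia is known to restrain mTORC1, among other routes through DDIT4. Many ribosomal protein genes also carry small nucleolar RNAs (snoRNAs) in their introns, which are cut out of the host transcript and guide the modification of ribosomal RNA.

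RefSeq promoters (GRCh38.p14) were at hand for 57 of the 73 members, in 71 entries, and 40 of these entries, or 56.3%, had a C at the start base followed by at least 4 pyrimidines. Among all 35116 promoters the share was 4.07%. Start windows of members that come up in the results and have such a run are given from 40 bases before the start to 20 bases from it, 5′ to 3′, with the pyrimidine run that opens the transcript in capitals.
RPS6 (chr9:19380217-19380276, minus strand): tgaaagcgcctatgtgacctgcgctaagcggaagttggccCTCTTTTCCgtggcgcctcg
RPSA (chr3:39406680-39406739, plus strand): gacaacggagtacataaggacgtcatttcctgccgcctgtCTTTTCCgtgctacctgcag
RPS19 (chr19:41860215-41860274, plus strand): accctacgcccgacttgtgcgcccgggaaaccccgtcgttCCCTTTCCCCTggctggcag
RPS9 (chr19:54200818-54200877, plus strand): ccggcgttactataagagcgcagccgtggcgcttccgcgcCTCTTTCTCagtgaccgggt
RPL28 (chr19:55385892-55385951, plus strand): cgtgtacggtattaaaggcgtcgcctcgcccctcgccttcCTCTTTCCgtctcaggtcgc
RPLP1 (chr15:69452778-69452837, plus strand): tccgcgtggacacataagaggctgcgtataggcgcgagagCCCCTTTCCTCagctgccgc

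The paralogs outside the standard ribosome did not all share it. RPS27L, RPL26L1 and RPL7L1 had no such run in these windows, where only the start base is in capitals; RPL26L1 has 2 annotated starts.
RPS27L (chr15:63157458-63157517, minus strand): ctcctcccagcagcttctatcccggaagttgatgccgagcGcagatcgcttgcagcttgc
RPL26L1 (chr5:172958689-172958748, plus strand): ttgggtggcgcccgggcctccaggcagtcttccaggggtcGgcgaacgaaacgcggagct
RPL26L1 (chr5:172958840-172958899, plus strand): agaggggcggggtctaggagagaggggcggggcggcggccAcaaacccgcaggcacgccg
RPL7L1 (chr6:42879576-42879635, plus strand): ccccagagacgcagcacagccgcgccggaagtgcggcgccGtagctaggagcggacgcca

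RPL22L1, the paralog of RPL22, did begin with a run of 6 pyrimidines. When the C and its pyrimidines could begin within 10 bases on either side of the annotated start, 78.9% of member entries and 33.47% of all promoters held one. Over the 300 bases from 250 before to 50 after the start, on both strands, CCGGAAG, the core bound by ETS factors such as GABPA, was in 35.2% of member entries and 10.26% of all promoters. TCTCGCGA, an element of many housekeeping promoters, was in 15.5% against 1.15%, and AAGATGGC, the core bound by YY1, in 8.5% against 2.89%. ACGTG and GCGTG, the cores that HIF factors read, were in 35.2% against 21.41% and in 49.3% against 36.54%. CACGTG, the E box read by MYC and MAX, which holds an ACGTG, was in 5.6% against 7.26%, TATAAA in 7.0% against 11.53% and GGGCGG, the SP1 core, in 52.1% against 44.95%. These are matches of letters only.

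Ribosomal protein genes were among the most transcribed genes of these cells. In WT normoxia, the median gene body level of the 70 members was 25.49 RPKM (read density scaled for region length and normalized library total, quartiles 19.38 and 35.06), against 1.3 RPKM for the other 16616 genes, and 67 of the 70 lay in the top 10% of all genes. At the TSS the member median was 462.18 RPKM against 70.91 RPKM for 15139 other genes, with 57 of 73 members in the top 10%. The ratio of TSS to gene body density, which rises where more polymerase sits near the start relative to the gene, ran the other way. Its member median was 17.73 against 47.09 for other genes, and 3 of 70 members lay above the other genes' median.

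RPS2, a 40S protein at the mRNA entry channel, had the highest gene body level, at 103.5 and 288 RPKM in the WT normoxia libraries. RPL13, a 60S protein, followed at 113 and 106.6 RPKM, and RPL13A, a 60S protein that also acts in the GAIT translational silencing complex, at 81.3 and 125.6 RPKM. The RPS2 values overlap those of both, so their order is not set by these libraries. The lowest levels among tested members belonged to paralogs, though the paralog RPL22L1 had a mean of 53.58 RPKM. RPL3L, a paralog of RPL3 used in striated muscle, was at 0.0327 and 0.0546 RPKM. RPL26L1 was at 1.37 and 0.978 RPKM, and RPS27L, a target of p53, at 3.9 and 4.77 RPKM. These values do not overlap each other, and RPL3L was also lowest at the TSS, at a mean of 0.403 RPKM.

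Among the ratios, RPL26L1 was highest at 129.4 and 164.7, and RPS27L, at 73.2 and 68.6, was among the next. The lowest ratios were those of RPL27A at 0.467 and 0.423, RPS23 at 2.9 and 3.87, and RPS2 at 9.8 and 3.31. The place of RPS2 comes from replicate 2, the library with more reads on snoRNA hosts; in replicate 1 it lay above RPL18, at 6.47, and RPL13, at 7.8. The counted TSS region of RPL27A lies 340 bp from the nearest annotated start and that of RPL18 234 bp from it, and the part of this distance in their ratios was not tested. RPL12, RPL10A and RPS18 had the highest TSS levels of the members. Members with a TOP start at an annotated start (39 tested) had a median gene body level of 25.67 RPKM and a median ratio of 17.26, and members without one (16 tested) 23.04 RPKM and 20.79.

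**Figure D1:**
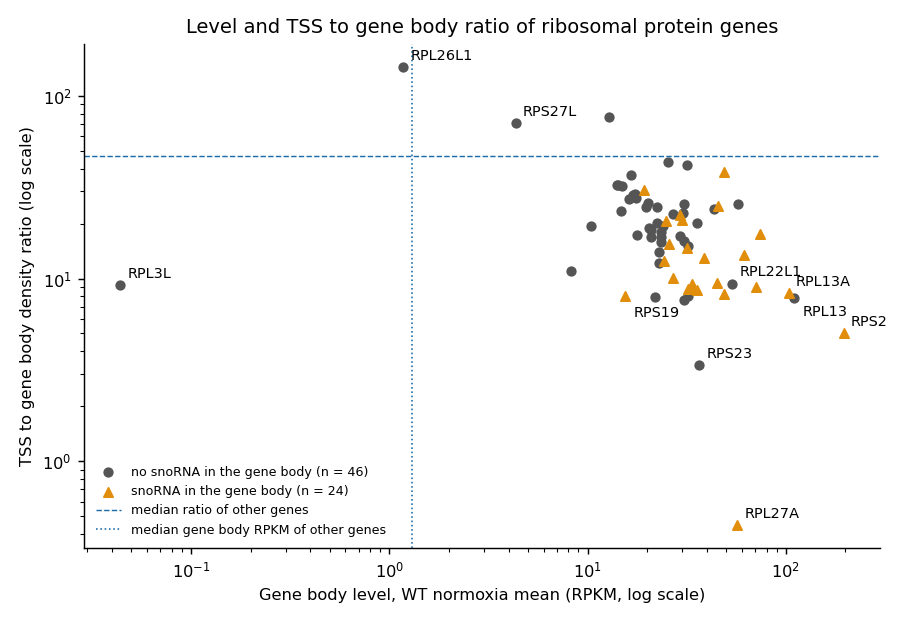
Each point is 1 of 70 ribosomal protein genes, with its mean gene body level in WT normoxia (RPKM, log axis) against its mean ratio of TSS to gene body density (log axis). Triangles are genes with a snoRNA in the counted gene body and lines mark the medians of all other genes, 1.3 RPKM and a ratio of 47.09; nearly all members lie right of the first line and below the second.

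The share of all gene body reads that fell on members overlapped between the oxygen levels. Replicates 1 and 2 stood at 0.736% and 0.838% for WT normoxia, at 0.77% and 0.589% for WT hypoxia, at 0.832% and 0.613% for HIF1A-/- normoxia and at 0.81% and 0.631% for HIF1A-/- hypoxia. Replicate 2 was the lower of the pair in 3 groups and the higher in WT normoxia. The 4 hypoxia libraries averaged 0.7% and the 4 normoxia libraries 0.755% (exact permutation test, two-sided, p = 0.486, adjusted p = 0.97 over 16 such tests). The permutation took no account of genotype or replicate number, so this p also holds the spread between replicates. In WT cells alone the means were 0.68% in hypoxia and 0.787% in normoxia, a difference of -0.107 percentage points (exact permutation test, two-sided, p = 0.667).

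At the TSS, WT cells gave 2.027% and 2.119% (normoxia) and 2.037% and 2.084% (hypoxia), and HIF1A-/- cells 2.197% and 2.124% (normoxia) and 2.253% and 2.154% (hypoxia). All 4 HIF1A-/- libraries lay above all 4 WT libraries, by 0.115 percentage points between the means. The exact two-sided permutation p was 0.0286, the smallest that 4 against 4 libraries can give, and it was 0.458 after adjustment over the 16 tests. A share that stands alone at that smallest p cannot pass this adjustment, so the adjusted value decides nothing. With 2 against 2 libraries the smallest possible p is 0.333, so no share could pass within a genotype.

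**Figure D2:**
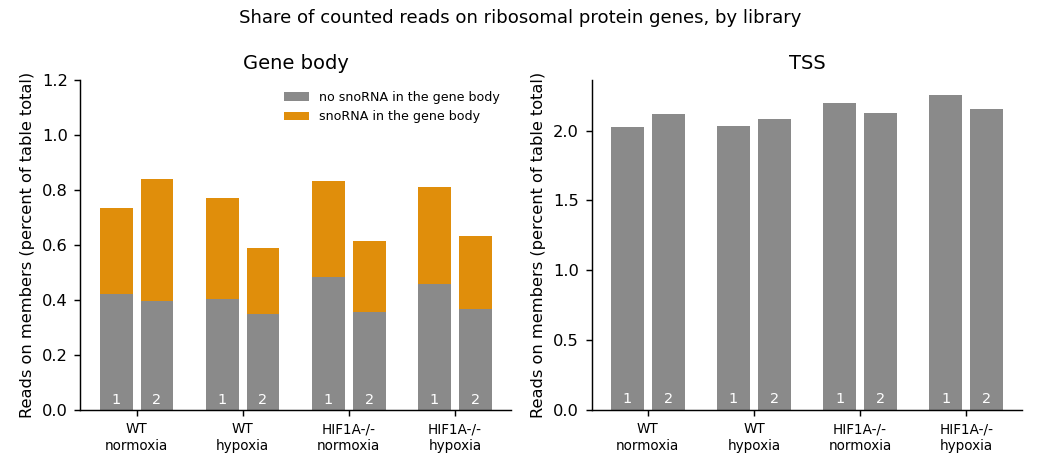
Bars give the percent of all counted reads of each library that fell on ribosomal protein genes, over gene bodies (left, split by whether the gene body holds a snoRNA) and at the TSS (right), with replicate 1 and 2 of each group side by side. WT normoxia replicate 2 has the highest gene body share at 0.838%, while the TSS shares run only from 2.027% to 2.253%.

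The excess in WT normoxia replicate 2 lay on members that host snoRNAs. Of the 73 members, 25 have an annotated snoRNA inside the counted gene body, and 24 of those were tested, as against 368 of all 16686 genes tested. The 24 hosts took 0.313% and 0.444% of gene body reads in the WT normoxia libraries, and the 46 members without a snoRNA 0.422% and 0.395%. In that group, the median log2 ratio of replicate 2 to replicate 1 was 0.34 for hosts, 20 of 24 being higher in replicate 2, and -0.13 for the rest. In the other groups it was -0.59 (WT hypoxia), -0.56 (HIF1A-/- normoxia) and -0.50 (HIF1A-/- hypoxia) for hosts and -0.26, -0.56 and -0.44 for the rest, and no host was higher in replicate 2. The 344 other genes with a snoRNA had medians of 0.05, -0.05, -0.01 and -0.02 in the same order of groups. At the TSS, the host medians lay between -0.02 and 0.02.

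RPS2 shows this most plainly, with 183 and 509.5 CPM over the gene body in WT normoxia. WT hypoxia had 329.8 and 120.2 CPM, HIF1A-/- normoxia 191 and 158 CPM and HIF1A-/- hypoxia 265.5 and 168 CPM. WT normoxia replicate 2 stands alone above the other 7 libraries. In replicates 1 and 2 of WT normoxia, RPS12 had 91.5 and 191.5 CPM, RPL7A 93.9 and 179 CPM and RPL13A 305 and 472 CPM. What else differed between these libraries was not tested.

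**Figure D3:**
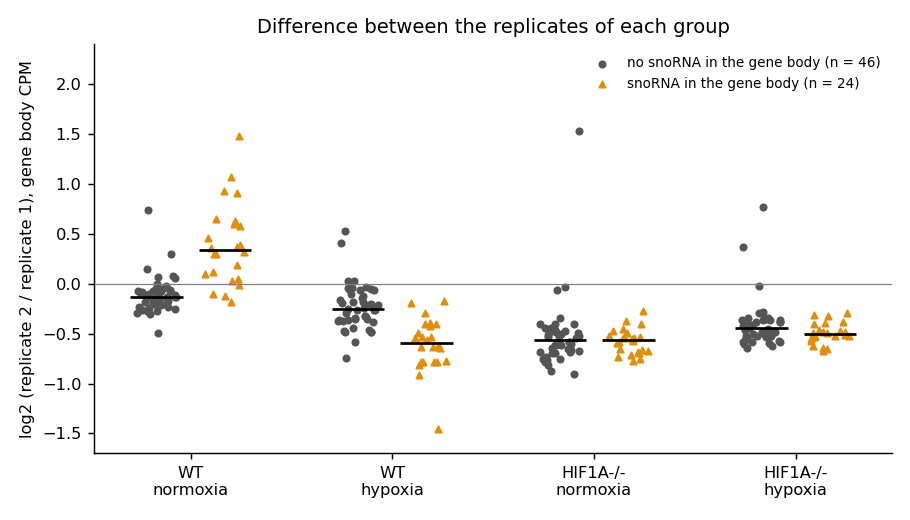
Each point is a ribosomal protein gene, placed by its log2 ratio of gene body CPM between replicate 2 and replicate 1 of a group, for 46 genes without and 24 genes with a snoRNA in the gene body; bars are medians. Medians of snoRNA hosts are 0.34 in WT normoxia and -0.59, -0.56 and -0.50 in the other groups, and the points far above the rest of the circles include RPL3L, which has few reads.

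The first comparison asked what 90 min of hypoxia did in WT cells. Gene body reads of most members were lower in hypoxia, by a small amount, and no single member was called on the group means alone. The median log2 difference of the 70 members was -0.20, with 67 of 70 below 0, against -0.02 for all genes, of which 52.4% lay below 0. None of the 70 was called by edgeR at a false discovery rate (FDR) of 10%, where 0.431% of all genes were called. None reached an unadjusted p of 0.05 and DESeq2 called 0. With a block that paired libraries of the same replicate number, 8 members had an unadjusted p under 0.05 by edgeR. All 8 were lower in hypoxia, and the share of all genes under that p was not counted. The libraries of 19 members, or 27.1%, did not overlap and were lower in hypoxia, against 19.4% of all genes. Those of 0 members were higher without overlap, against 18.3% of all genes.

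Read within each replicate number, the median was -0.08 for pair 1 and -0.31 for pair 2, with 43 and 67 of 70 below 0 and 40 below 0 in both. For snoRNA hosts it was 0.20 and -0.75, opposite in the 2 pairs, and for members without a snoRNA -0.11 and -0.21, with 34 of 46 lower in both. In fits without a block, the size of the difference depended on WT hypoxia replicate 2. Without that library the median of all members was -0.04, and without WT hypoxia replicate 1 it was -0.36. Without WT normoxia replicate 2, which carries the host excess, it was -0.18, and over members without a snoRNA -0.16. Leaving out 1 library also unbalances the replicate numbers, so these values mix the difference between replicates with that between oxygen levels.

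RPS19, the 40S protein most often mutated in Diamond-Blackfan anaemia, had 239 and 206 CPM over the gene body in WT normoxia and 204 and 146 CPM in WT hypoxia. Both hypoxia libraries lay below both normoxia libraries, with a log2 difference of -0.35 (SE 0.231, edgeR adjusted p = 0.897). When libraries of the same replicate number, which deviated together, were paired as a block, RPS19 was called at -0.36 (edgeR adjusted p = 0.0895). It was among 2 of 70 members called with the block, both lower, where 5.51% of all genes were called.

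RPSA, a 40S protein also described as a laminin receptor, was at 129.7 and 161.5 CPM in normoxia and 126.6 and 85.8 CPM in hypoxia, a log2 difference of -0.46 (SE 0.299). RPSA is a snoRNA host, and its pairs read -0.04 and -0.91, so nearly all of the difference came from pair 2. RPS6, the 40S protein phosphorylated by S6 kinases, was at 92.95 and 88.7 CPM in normoxia and 87.7 and 85.9 CPM in hypoxia, a log2 difference of -0.07 (SE 0.174). RPS27A, which encodes ubiquitin fused to a 40S protein, gave -0.13 (SE 0.240). RPL6 and RPS20 leaned the other way, with log2 differences of 0.07 and 0.02 that were not called.

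At the TSS, the members' differences with hypoxia in WT cells were centred on 0. The median log2 difference of the 73 members was 0.00, in pair 1 and in pair 2 as well, with 34 below 0. edgeR called 0 of 73, where 0.046% of all genes were called, 1 member had an unadjusted p under 0.05 and DESeq2 called 0. That member was RPL13, at 486 and 460.5 CPM in normoxia and 397 and 346 CPM in hypoxia (log2 difference -0.35, SE 0.14, edgeR adjusted p = 0.922). Its groups did not overlap. RPS19 was at 117.9 and 74.4 CPM in normoxia and 75.6 and 60.5 CPM in hypoxia, with 1 normoxia library inside the hypoxia range (log2 difference -0.50, SE 0.242). RPS27L at 0.28 and RPL15 at 0.25 were the members with the smallest p in the other direction.

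The ratio of TSS to gene body reads was fitted over both tables at once. Its median log2 difference between hypoxia and normoxia in WT cells was 0.23 over 70 members, with 65 above 0, against 0.01 for all genes. No member was called where 0.193% of all genes were, and none had an unadjusted p under 0.05. With the block 0 members were called, and 9, all higher, had an unadjusted p under 0.05 by edgeR. By pair, the median was 0.02 and 0.33. Without WT hypoxia replicate 2, in a fit without the block, it was 0.01, so its size depended on the same library as the gene body difference. RPS3, a 40S protein and snoRNA host, gave 0.62 (SE 0.327) and RPL11 0.43 (SE 0.232), while RPL13 gave -0.24 (SE 0.249) and RPL22 -0.12 (SE 0.210).

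**Figure D4:**
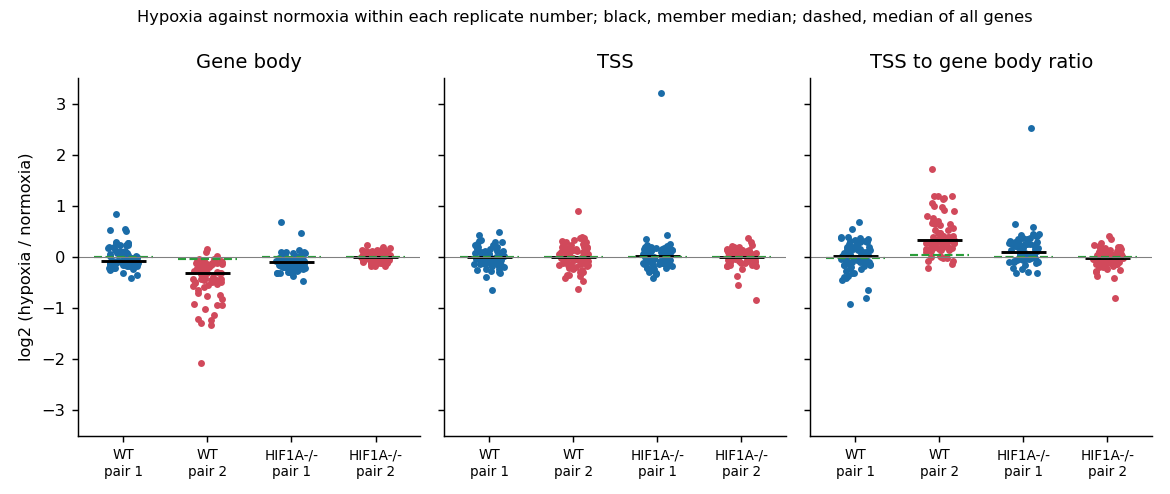
Points are ribosomal protein genes, placed by the log2 ratio of hypoxia to normoxia within replicate 1 (blue) and within replicate 2 (red) of each genotype, for gene body reads, TSS reads and their ratio; black bars are member medians and dashed green bars medians of all genes. Gene body medians are -0.08 and -0.31 in WT and -0.10 and 0.00 in HIF1A-/- cells, and the TSS medians lie at 0; the highest points of the HIF1A-/- pair 1 are RPL3L, which has few reads.

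In HIF1A-/- cells, the median log2 difference between hypoxia and normoxia over gene bodies was -0.07, with 50 of 70 members below 0 and pairs of -0.10 and 0.00. No member was called by edgeR or DESeq2, none had an unadjusted p under 0.05, and 0% of all genes were called. The smallest p values belonged to RPL7, a 60S protein, at -0.27 (SE 0.25), and RPL6 at -0.12 (SE 0.112), and those in the other direction included RPS2 at 0.31 (SE 0.552). The median ran from -0.30 to 0.23 as each library was left out, so its sign is not set.

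At the TSS the HIF1A-/- median was 0.01, with 0 of 73 called by edgeR or DESeq2, 0% of all genes called, and no unadjusted p under 0.05. RPLP0, the base of the P stalk, was highest by p at 0.28 (SE 0.147), with RPL28 at 0.25 (SE 0.146), and RPL23 at -0.24 and RPL37 at -0.23 were lowest. For the ratio the median was 0.05, again with 0 members and 0% of all genes called and no unadjusted p under 0.05. RPL37A and RPS24 gave 0.35 each, RPL7L1 -0.23 and RPL4 -0.25.

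The response of HIF1A-/- cells minus that of WT cells, which tests whether the genotypes differ, called no member in any reading. Over gene bodies its median was 0.16, with 56 of 70 above 0 and pairs of -0.10 and 0.32, against 0.02 for all genes; 0.0539% of all genes were called. Without HIF1A-/- normoxia replicate 2 it was -0.11, without WT hypoxia replicate 2 -0.02, and without HIF1A-/- hypoxia replicate 1 -0.08. RPS2 gave 0.94 (SE 0.781) and RPL13A 0.58 (SE 0.490), both snoRNA hosts, and RPL6 -0.18 and RPL37A -0.17. At the TSS the median was -0.02 and 0.00657% of all genes were called, with RPS24 at 0.38, RPLP2 at 0.43, RPL37 at -0.37 and RPS27L at -0.36. For the ratio it was -0.17 with 0.0207% of all genes called, RPS24 at 0.34, RPS19 at 0.23, RPL13A at -0.73 and RPL37 at -0.45. In all 3 readings 0 members had an unadjusted p under 0.05, and DESeq2, run for gene bodies and the TSS, called 0.

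The second question was how HIF1A-/- and WT cells differ at each oxygen level. In normoxia, gene body reads had a median log2 difference of 0.01, from pairs of 0.23 and -0.25. edgeR called 0 of 70 members and 1.78% of all genes, DESeq2 called 0 members, and none had an unadjusted p under 0.05. In pair 1, 1 of 70 members lay below 0, and in pair 2, 66 of 70. The genotypes' libraries were without overlap in 0% of members in either direction, against 14.9% (higher) and 17.4% (lower) of all genes. RPS2, a snoRNA host, gave -0.99 (SE 0.556), with RPL7 at 0.27 and RPL3L at 0.72 (SE 0.683) on the other side.

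At the TSS in normoxia the median was 0.07, with pairs of 0.13 and 0.00. edgeR called 0 of 73 members and 0.657% of all genes, DESeq2 called 0, and 4 members, all higher, had an unadjusted p under 0.05. In 26 members, or 35.6%, both HIF1A-/- libraries lay above both WT libraries, against 17.4% of all genes. In 4 members, or 5.48%, both lay below, against 17.3% of all genes. RPS15A, a 40S protein, was at 262 and 273 CPM in WT and 444 and 301 CPM in HIF1A-/- normoxia (log2 difference 0.47, SE 0.182, edgeR adjusted p = 0.521). Both HIF1A-/- libraries lay above both WT libraries. It was the 1 member called with the block (0.46, edgeR adjusted p = 0.0925), where 4.29% of all genes were. RPL26L1 was at 97.9 and 88.8 CPM in WT and 156.7 and 106.9 CPM in HIF1A-/- cells (log2 difference 0.49, SE 0.211, edgeR adjusted p = 0.582). RPS24 gave -0.34 (SE 0.157) and RPL18 -0.29 (SE 0.181).

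In hypoxia, gene body reads had a median log2 difference of 0.10 between HIF1A-/- and WT cells, with 52 of 70 members above 0 and pairs of 0.16 and 0.04. edgeR called 0 of 70 members, where it called 4.26% of all genes; DESeq2 called 0, and none had an unadjusted p under 0.05. With the block, 4 members were called, all higher in HIF1A-/- cells, or 5.71% of members where 28.2% of all genes were called. Among them were RPS9, a 40S protein near the mRNA entry (block 0.36, edgeR adjusted p = 0.0524), RPS19 (block 0.30, edgeR adjusted p = 0.0533) and RPL28, a 60S protein (block 0.53, edgeR adjusted p = 0.0555). Without the block the adjusted p of these ran from 0.537 to 0.579. The genotypes' libraries were without overlap in 1.43% of members in each direction, against 20.9% (higher) and 24.6% (lower) of all genes.

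RPS19 was at 204 and 146 CPM in WT hypoxia and 246.6 and 184.5 CPM in HIF1A-/- hypoxia. RPS9 was at 137 and 106.1 CPM and then 187 and 129.4 CPM. RPL28 was at 28.7 and 17.1 CPM and then 37.9 and 27.1 CPM. In each, replicate 1 of HIF1A-/- cells was the highest and replicate 2 of WT the lowest of the 4, and the middle libraries overlapped. On the other side RPL6 gave -0.20 (SE 0.112) and RPS27L -0.20 (SE 0.232). The sign of the member median turned without WT hypoxia replicate 2, at -0.03, and without HIF1A-/- hypoxia replicate 1, at -0.12.

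Of all comparisons, the TSS in hypoxia had the most members with an unadjusted p under 0.05. It also had the most calls over all genes among the TSS comparisons. The share of all genes under that p was not counted in any comparison. edgeR called 0 of 73 where it called 1.1% of all genes, DESeq2 called 0, and 6 members higher and 1 lower in HIF1A-/- cells had an unadjusted p under 0.05. RPL28 was at 395 and 427 CPM in WT hypoxia and 654 and 523.5 CPM in HIF1A-/- hypoxia. Both HIF1A-/- libraries lay above both WT libraries, and its normoxia libraries read 397 and 393 CPM in WT against 513 and 476.5 CPM in HIF1A-/- cells. The log2 difference in hypoxia was 0.52 (SE 0.145, edgeR adjusted p = 0.167, DESeq2 adjusted p = 0.102). RPS27L ran the other way, at 199 and 212 CPM in WT hypoxia and 141 and 151 CPM in HIF1A-/- hypoxia, also without overlap (log2 difference -0.49, SE 0.169, edgeR adjusted p = 0.251). RPL18 gave -0.35 (SE 0.180).

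With the block, 7 members were called higher and 1 lower, or 11% of members where 14.4% of all genes were called. RPL28 (0.51, edgeR adjusted p = 0.0119), RPL26L1 (0.56, edgeR adjusted p = 0.0208), RPS15A (edgeR adjusted p = 0.043), RPS12 (edgeR adjusted p = 0.0575) and RPS19 (edgeR adjusted p = 0.0694) rose, as did RPS9 (edgeR adjusted p = 0.0756) and RPL13 (edgeR adjusted p = 0.0845), and RPS27L fell (-0.49, edgeR adjusted p = 0.018). RPL26L1 was at 88 and 90.6 CPM in WT hypoxia and 156.5 and 111.7 CPM in HIF1A-/- hypoxia. RPS15A was at 231.5 and 248 CPM and then 364 and 299 CPM. In both, replicate 1 of HIF1A-/- cells was well above replicate 2, and neither overlapped WT. Without the filter on low counts, 5 members were called, among them RPL28, RPL26L1, RPS15A and RPS27L. Over all genes, that fit called 1063, against 168 with the filter. With each library left out in turn, the normoxia log2 difference ran from 0.167 to 0.729 (RPS15A) and from 0.193 to 0.746 (RPL26L1). That of RPL28 in hypoxia ran from 0.349 to 0.658. The median of the 73 members was 0.04, against -0.01 for all genes. Both HIF1A-/- libraries lay above both WT libraries in 30.1% of members, against 24.2% of all genes. Both lay below in 12.3% of members, against 24.2% of all genes.

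For the ratio of TSS to gene body reads, no member was called between the genotypes. In normoxia the member median was 0.11, edgeR called 0 of 70 where it called 0.0759% of all genes, and 2 members had an unadjusted p under 0.05. RPS13, a snoRNA host, was among them at 0.60 (SE 0.280), with RPS24 at -0.39 and RPL18 at -0.42 lowest. In hypoxia the median was -0.05, 0 members and 0.718% of all genes were called, and no member had an unadjusted p under 0.05. RPS15A gave 0.40, RPL27A -0.50 and RPL18 -0.46.

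**Figure D5:**
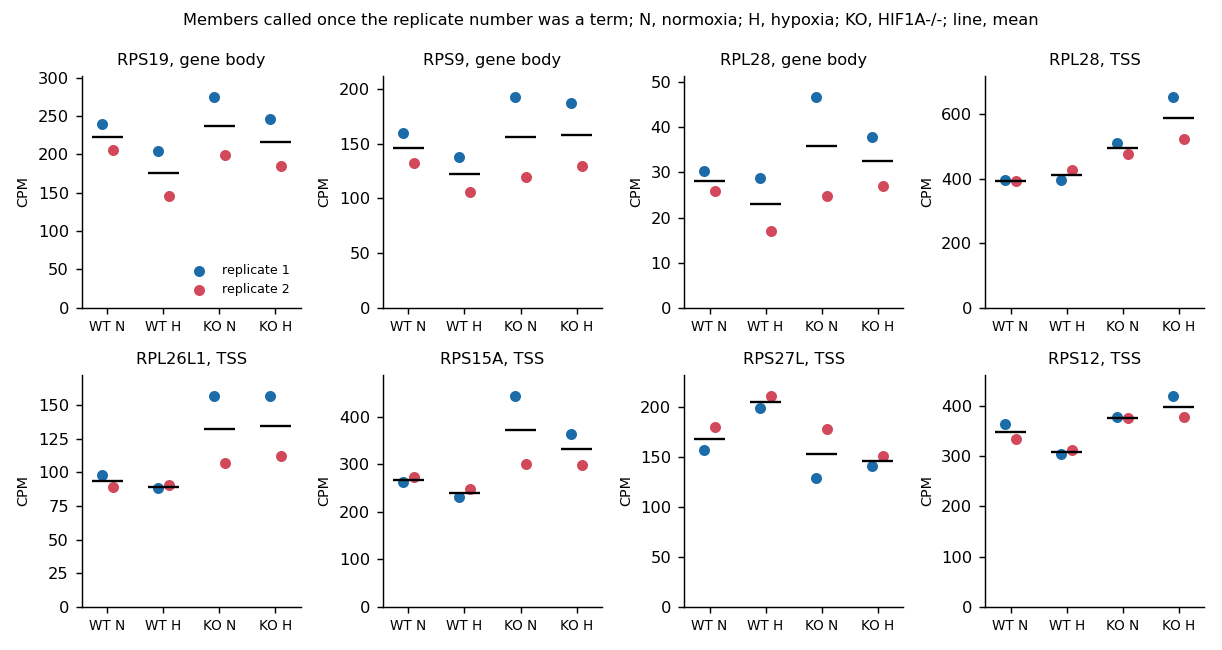
Each panel gives 1 ribosomal protein gene, with CPM in every library (blue, replicate 1; red, replicate 2) and the mean of each group as a bar; the axis starts at 0. In RPL28 and RPL26L1 at the TSS all HIF1A-/- points lie above all WT points, from 476.5 CPM against 427 CPM and from 106.9 CPM against 97.9 CPM, whereas in RPS19 and RPS9 over the gene body replicate 2 is the lower point in every group.

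Set out by role, the differences with hypoxia in WT cells were small, and none was called without the block. For both subunits, more lay below 0 in pair 2 than in pair 1: in pair 1, 16 of 25 proteins of the small subunit (median -0.09) and 21 of 37 of the large subunit (median -0.02) lay below 0, and in pair 2, 25 and 36. In the fit over both pairs, 24 of 25 gene body differences of the small subunit lay below 0 (median -0.19), 35 of 37 of the large subunit (median -0.21) and 3 of 3 of the P stalk (median -0.26), which recruits the elongation factors. RPLP0 gave -0.11, RPLP1 -0.26 and RPLP2 -0.33, and the pairs of RPLP2, a snoRNA host, were opposite, 0.18 and -0.93. Of the 5 paralogs tested, 5 lay below 0, with a median of -0.14. RPL22, which also binds viral and cellular RNAs, gave -0.24 and RPL22L1 -0.06. RPL26 gave -0.14 and RPL26L1 -0.18. In HIF1A-/- cells the same medians were -0.06 for the small subunit, -0.08 for the large subunit, -0.08 for the P stalk and -0.03 for the paralogs.

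RPL5 and RPL11, which form a particle with 5S ribosomal RNA that binds MDM2 when ribosome assembly fails, gave -0.20 and -0.23. With RPL23, RPL26 and RPS27L, which are also tied to p53, they had a median of -0.20, with 5 of 5 below 0. RPL5 and RPL23 are snoRNA hosts. RPL3, a 60S protein close to the peptidyl transferase centre and a snoRNA host, gave -0.26, from pairs of 0.12 and -0.71. Genes mutated in Diamond-Blackfan anaemia had 12 of 12 below 0 (median -0.16), and RPS19 was the 1 called with the block. Members with a TOP start had 39 of 39 below 0 (median -0.24) and those without 14 of 16 (median -0.18). Among genes without a snoRNA the same medians were -0.16 and -0.17.

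Other translation genes, most of them with TOP mRNAs, gave values close to the members' median. Of 24 tested, 23 lay below 0 over the gene body in WT hypoxia (median -0.19) and 0 were called, or 1, lower, with the block; 18 lay below 0 in pair 1 and 24 in pair 2. Between HIF1A-/- and WT cells in hypoxia, 3 of the 24 were called higher with the block, where 28.2% of all genes were called in either direction, and 0 without it. EEF1D (0.58, edgeR adjusted p = 0.016) and EIF3K (0.32, edgeR adjusted p = 0.034) were among the 3.

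The regulators of ribosomal protein genes and mRNAs, 15 in all, included genes that did move. DDIT4, which restrains mTORC1, was at 21.2 and 25.9 CPM over the gene body in WT normoxia. WT hypoxia had 140.5 and 203 CPM, HIF1A-/- normoxia 8.18 and 14.8 CPM and HIF1A-/- hypoxia 7.96 and 17.3 CPM. It rose in WT cells by 2.87 on the log2 scale (SE 0.409, edgeR adjusted p = 0.0459), and in hypoxia was lower in HIF1A-/- cells by a log2 difference of -3.77 (edgeR adjusted p = 0.00509). MXI1, a MAX partner that opposes MYC, was lower in HIF1A-/- hypoxia at -1.32 (edgeR adjusted p = 0.0318), and its WT response of 1.26 was called with the block only (edgeR adjusted p = 0.000669, against 0.141 without). EIF4EBP1, which holds eIF4E from the mRNA cap, was lower in HIF1A-/- cells in normoxia at -0.87 (edgeR adjusted p = 0.0379) and in hypoxia at -0.78 (edgeR adjusted p = 0.0368). MYC itself gave -0.41 (SE 0.404) in WT hypoxia and LARP1 -0.21 (SE 0.222), neither called.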

How the data were processed

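Nascent RNA of 8 PRO-seq libraries was analysed, 2 per group, grouped by the sample labels; the study describes them as independent biological duplicates. The deposited values are raw read counts per gene, which the authors made by trimming, aligning to GRCh37 (hg19) with HISAT2 2.1.0 without splicing, keeping a mapping quality above 10, merging 2 sequencing runs and counting with featureCounts (Subread 1.6.2). They kept a single TSS region of 551 bp and a single gene body, from 1001 bp on, per gene, so reads of other starts of a gene are not seen, and reads shared by ribosomal protein pseudogenes may be lost to the mapping filter.

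From these counts, genes above 0.5 CPM in at least 2 libraries were normalized by TMM and fitted with edgeR 4.0.16 (glmQLFit, glmQLFTest) in R 4.3.3, over all 8 libraries and 4 group means for each region. The ratio of TSS to gene body reads was tested in 1 fit of 16 columns with a term per library. P-values were adjusted by Benjamini-Hochberg over all genes tested, with calls at an FDR of 10%. P-values measure the spread between the 2 libraries of a group, estimated over all 8 libraries together. The p of a comparison therefore also depends on libraries outside it. Printed CPM and RPKM values use each table's total scaled by its TMM factor, and RPKM also the region length. The CPM limits use the total alone. snoRNAs came from GENCODE v44 lifted to GRCh37, and promoters from RefSeq (GRCh38.p14). Alternatives were DESeq2 1.42.0, library totals, no filter, CPM above 1 in all 8 libraries, a replicate block and leaving out each library. Members without a snoRNA were set apart after seeing the data. The scripts were tested on simulated data.

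Deviations from the group means correlated between same-numbered libraries, across genes, by 0.467 to 0.749 (gene bodies) and 0.174 to 0.414 (TSS regions) over the 6 pairs of groups. Replicate numbers were on this ground, which comes from the data and not the labels, treated as pairs. The block is given where it changes a call, and in part for counts of members with an unadjusted p under 0.05. Members and lists were chosen with earlier results of these data known. Named members are those called (at most 5 per direction and comparison), otherwise the 2 with the smallest p per direction, a fixed set by role, the 3 highest and lowest levels and ratios, and those that failed a filter. RPL7A, RPL12, RPL10A, RPS18 and RPS12 in normoxia, and genes given only as examples of a list, were named after their values were seen. Single-gene results of some members are not reported here.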

Additional observations from a re-analysis of the deposited data

How the results depend on the processing

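The counts of members called stayed at 0 under nearly every alternative. With the replicate block they were 2 (gene body, hypoxia in WT), 4 (gene body, HIF1A-/- against WT in hypoxia), 1 (TSS, HIF1A-/- against WT in normoxia) and 8 (TSS, the same in hypoxia), and the block changed no other count of members called. Without the filter on low counts the last was 5, where 1063 of all genes were called. The block also raised counts of members with an unadjusted p under 0.05. Higher and lower members then numbered 8 and 1 over gene bodies and 11 and 2 at the TSS for HIF1A-/- against WT in hypoxia. In normoxia they numbered 4 and 2 at the TSS and 7 and 1 in the ratio. For hypoxia in WT at the TSS they numbered 2 and 4. Further such counts are not listed. Fits that leave out a library keep 1 library in a group, so their counts of members called are not given. Of 969 values of 76 named results under alternatives, 930 kept their direction and their side of the threshold, 21 passed the threshold only under the alternative and 18 changed sign, in 16 results, none of them called. Shares over the standard ribosome's members alone, chosen after seeing the data, were 0.557% to 0.806% of gene body reads and 1.968% to 2.189% of TSS reads. Depth limits RPL3L, which stayed below 1 CPM over the gene body in every library. The filter of CPM above 1 in all 8 libraries, DESeq2 and scaling by library totals called no member.

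The member medians moved with single libraries. As each was left out in turn, the gene body median ran from -0.362 to -0.038 for hypoxia in WT, from -0.298 to 0.231 for hypoxia in HIF1A-/- cells and from -0.114 to 0.437 for their difference. Against WT, HIF1A-/- cells ran from -0.26 to 0.258 in normoxia and from -0.121 to 0.288 in hypoxia. The TSS medians ran from -0.012 to 0.032, -0.037 to 0.045, -0.081 to 0.034, 0.052 to 0.105 and 0.02 to 0.092, and those of the ratio from 0.005 to 0.385, -0.183 to 0.274, -0.391 to 0.063, -0.141 to 0.309 and -0.263 to 0.126, in the same order. The TSS median for hypoxia in WT, 0.004, was 0.000 by DESeq2, -0.025 with library totals, 0.003 without the filter, 0.005 with CPM above 1 in all libraries and 0.007 with the replicate block. With CPM above 1 the TSS median for hypoxia in HIF1A-/- cells was 0.003, with library totals the TSS difference between genotypes was 0.012, and over members without a snoRNA the ratio's median for HIF1A-/- against WT in hypoxia was -0.094.

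Among named genes, every change of sign came from leaving out a library, in genes that were not called. For hypoxia in WT over the gene body, RPL22L1 ran from -0.158 to 0.043, RPL26 from -0.302 to 0.016, RPL26L1 from -0.395 to 0.092, RPL3 from -0.605 to 0.025, RPL5 from -0.452 to 0.031, RPL6 from -0.002 to 0.137, RPLP2 from -0.783 to 0.026, RPS20 from -0.017 to 0.061 and RPS27L from -0.363 to 0.054. For hypoxia in HIF1A-/- cells, RPL7 ran from -0.544 to 0.079 and RPS2 from -0.029 to 0.601. The difference between genotypes ran from -0.38 to 0.021 for RPL37A. For HIF1A-/- against WT, RPL3L ran from -0.223 to 1.319 and RPL7 from -0.059 to 0.564 in normoxia, and RPS27L from -0.41 to 0.019 in hypoxia. In the ratio, the difference between genotypes ran from -0.004 to 0.451 for RPS19. The causes were not tested.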

Other observations

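Among genes that are no ribosomal protein genes but hold a snoRNA in the gene body, some were also higher in replicate 2 of WT normoxia. EIF4A2, a translation initiation helicase, had 324.3 CPM in replicate 1 and 531.9 CPM in replicate 2, and HSPA8, a constitutive chaperone, 444 and 747 CPM. SNHG17, a non-coding snoRNA host, had 176 and 254 CPM. Others were nearer, such as NOP58, a snoRNP protein, at 287 and 275.5 CPM, and NCL, the nucleolar protein nucleolin, at 239.9 and 253.5 CPM. They were picked with these values in view.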
